A study of Homo sapiens with 8 samples.

Results

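HBEGF, AREG, EREG, TGFA, EGFR, ERRFI1 and LRIG1, which encode 4 ligands of the EGF receptor, the receptor itself and 2 of its inhibitors, were picked by gene symbol from a table of 46427 genes. All 7 were present, and 6 had enough reads to be tested among 17044 genes. EREG had 0 counts in every library. The 8 poly(A) RNA-seq libraries come from RPE-1, a human line of retinal pigment epithelial (RPE) cells immortalised with the telomerase gene hTERT, bought from a cell bank and grown in medium with serum. Cells were treated in lots of 2500000 with all-trans-retinal (atRAL, 25 µM), a retinaldehyde of the visual cycle that is toxic in excess, with extracellular vesicles (EV, 2000000000 particles per ml) from tonsil-derived mesenchymal stem cells, with both or with neither. RNA was taken after 1 or 6 h, which gives a control, an EV, an atRAL and an atRAL plus EV library at each time, 1 library per condition.

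Total counts ran from 45566237 to 71822269 per library. Levels are given as CPM, counts-per-million of a library's total after TMM scaling (trimmed mean of M-values). Their 95% intervals are exact Poisson intervals that cover counting error only. Of 10 RPE markers, 3 passed 1 CPM in any library (MITF, OTX2 and BEST1), RPE65 reached 0.122 CPM at most, and TYR and TTR were at 0 throughout. Of 6 epithelial markers the keratins KRT8, KRT18 and KRT7 passed 1 CPM, while CDH1 stayed at or below 0.113 CPM and EPCAM at or below 0.0701 CPM. Detection above 1 CPM was thus limited to 3 keratins of this list, and a further keratin, KRT19, stayed at or below 0.355 CPM. Of 8 mesenchymal markers, which also mark the type of cell that made the vesicles, 7 passed 1 CPM in any library. ENG among them reached 1.1 CPM at most, and COL1A2 stayed at or below 0.0969 CPM. The summed level was 38900 to 42700 CPM, most of it from FN1 (31800 to 34700 CPM) and VIM (4570 to 5960 CPM). The 6 leukocyte markers summed to 0.578 to 1.05 CPM, with MS4A1 at 0.

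The EGF receptor is a tyrosine kinase of the cell surface. Its ligands are made as precursors anchored in the membrane and are released by metalloproteases of the ADAM family. Ligand binding pairs receptors and starts the RAS, RAF, MEK and ERK kinase cascade, whose target genes include both ligands and feedback inhibitors. ERRFI1, also called MIG6, is such an inhibitor and binds the kinase domain, and LRIG1 is a membrane protein that promotes breakdown of the receptor. In RPE cells the receptor and HB-EGF, the product of HBEGF, are known for driving proliferation and migration.

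The promoters of HBEGF, ERRFI1 and AREG are shown because these 3 genes passed the test for EV at 1 h or 6 h. Each window runs from 250 bases before to 50 bases after the start of the gene, in the 5′ to 3′ direction of the gene (RefSeq, GRCh38.p14). The HBEGF window lies at chr5:140346554-140346853 on the minus strand, that of ERRFI1 at chr1:8026260-8026559 on the minus strand and that of AREG at chr4:74444886-74445185 on the plus strand. Capitals mark matches to a searched motif.
HBEGF: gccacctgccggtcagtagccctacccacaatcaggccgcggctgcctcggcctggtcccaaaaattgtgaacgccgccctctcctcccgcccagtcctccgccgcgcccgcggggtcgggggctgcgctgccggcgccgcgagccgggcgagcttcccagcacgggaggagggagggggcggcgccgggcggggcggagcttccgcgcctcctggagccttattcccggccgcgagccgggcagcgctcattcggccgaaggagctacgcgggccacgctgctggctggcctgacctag
ERRFI1: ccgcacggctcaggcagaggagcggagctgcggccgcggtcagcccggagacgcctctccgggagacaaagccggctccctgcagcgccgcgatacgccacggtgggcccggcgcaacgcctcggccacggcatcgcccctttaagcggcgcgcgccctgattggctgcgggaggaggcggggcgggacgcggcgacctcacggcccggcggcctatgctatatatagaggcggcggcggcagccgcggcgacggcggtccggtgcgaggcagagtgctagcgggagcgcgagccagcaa
AREG: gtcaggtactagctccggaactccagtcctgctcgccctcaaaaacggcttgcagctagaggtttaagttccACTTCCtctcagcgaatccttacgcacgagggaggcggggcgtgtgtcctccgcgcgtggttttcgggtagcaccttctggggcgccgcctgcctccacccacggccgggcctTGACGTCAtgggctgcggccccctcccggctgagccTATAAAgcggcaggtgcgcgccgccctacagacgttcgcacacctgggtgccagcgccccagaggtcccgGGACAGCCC
The motifs searched on both strands were AP-1 (TGANTCA), CRE (TGACGTCA), TATA box (TATAAA), antioxidant element (TGACNNNGC), C/EBP-ATF element (TGATGNAA), EGR (GCGTGGGCG), ETS core (GGAAGT), NF-kB (GGGNNNTCC) and the serum response CArG box. The windows of HBEGF and ERRFI1 held no match to any of them, which says only that these letters are not in these windows. The AREG window held the palindromic CRE at -65 from the start site, found in 1.85% of 35116 promoter windows of the same length. It also held a TATA box at -29 (11.5% of windows), the ETS core on the minus strand at -178 (22.8%) and an NF-kB match on the minus strand at 42 (21%). None of these AREG matches overlapped another. GC content was 75% for HBEGF, 74.7% for ERRFI1 and 66.3% for AREG.

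HBEGF, AREG and ERRFI1 were each called for EV at 1 or more times and for atRAL at 6 h. HBEGF rose with EV at both times and with atRAL at 6 h, and its lowest level was in the untreated cells of 6 h. At 1 h it stood at 29 CPM in the control, 89.5 with EV, 35 with atRAL and 83.8 with atRAL plus EV, from read counts of 1657, 5200, 1600 and 5884. At 6 h the levels were 13.1, 25.8, 38.7 and 92.6 CPM in the same order, from 962, 1844, 2397 and 5735 reads. Both EV libraries of 1 h lay above both libraries without EV, whereas at 6 h the 4 libraries stood in the order control, EV, atRAL, and atRAL plus EV. Of the levels next to each other in rank, only the 2 highest (92.6 CPM with atRAL plus EV at 6 h and 89.5 CPM with EV at 1 h) had overlapping counting intervals.

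**Figure D1:**
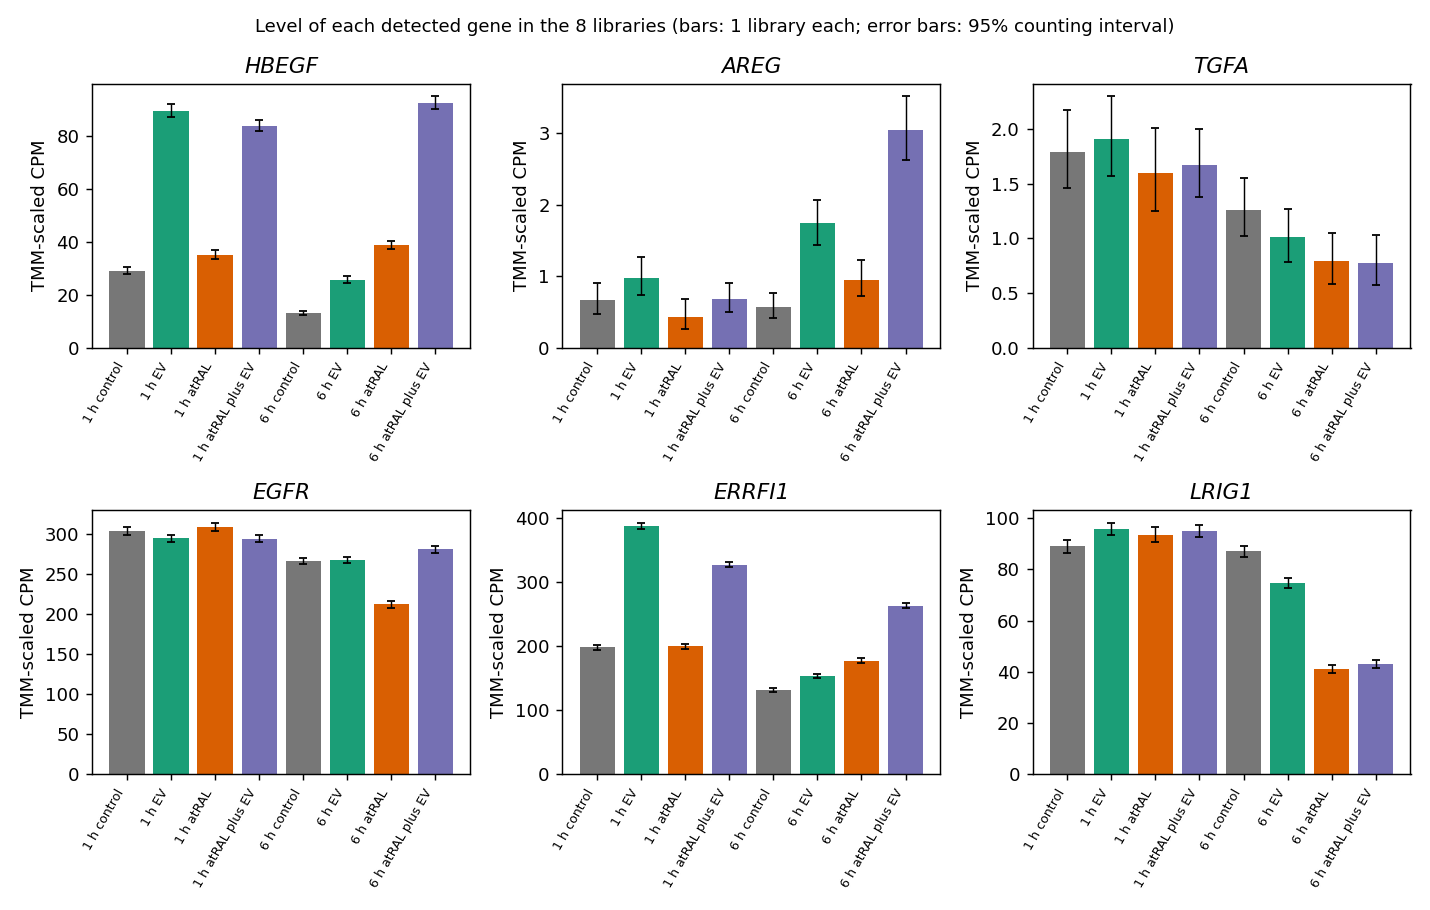
Level of the 6 detected members in TMM-scaled CPM (vertical axes, each on its own scale from 0) in the 8 libraries (horizontal axis). A bar is 1 library and the error bar its 95% counting interval; HBEGF ran from 13.1 to 92.6 CPM, and LRIG1 was lowest in the 2 atRAL libraries of 6 h at 41.1 and 43 CPM.

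The first question is what the vesicles did to these genes within 1 h. Over both pairs of libraries HBEGF rose 2.72-fold (1.44 ± 0.11 SE on the log2 scale, adjusted p = 0.0032 by edgeR's quasi-likelihood test, 2 libraries against 2). All later values of this form are log2 fold changes ± SE. The single pairs gave 3.08-fold without atRAL and 2.39-fold with it. ERRFI1 rose 1.79-fold (0.84 ± 0.10, adjusted p = 0.03, edgeR), from 198 CPM in the control to 388 with EV and from 200 with atRAL to 327 with atRAL plus EV. Both called members were higher with EV in 2 of 2 pairs, which are the pairs that the test itself used. AREG (0.60 ± 0.26), TGFA (0.08 ± 0.22), EGFR (-0.06 ± 0.10) and LRIG1 (0.06 ± 0.09) were not called. Of 6 tested members 2 were called, where 0.205% of all genes were, 35 of 17044. Members and lists were chosen with earlier results of these data known. Such counts, here and below, therefore describe these genes and are no test of the family. Both calls went when any single 1 h library was left out, whichever of the 4 it was, in fits that called 0 or 1 gene of the whole table. HBEGF then stood at 1.27 to 1.64 (adjusted p from 0.1 to 0.25) and ERRFI1 at 0.72 to 0.98 (adjusted p from 0.36 to 1). The ERRFI1 call was also lost with no filter on low counts (adjusted p = 0.1) and on log2(FPKM + 1) (adjusted p = 0.071).

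After 6 h with EV, HBEGF was 2.18-fold higher (1.13 ± 0.11, adjusted p = 0.0082, edgeR) and AREG, which encodes amphiregulin, 3.12-fold higher (1.64 ± 0.23, adjusted p = 0.021). AREG stood at 0.571 CPM in the control, 1.74 with EV, 0.953 with atRAL and 3.05 with atRAL plus EV, from 42, 124, 59 and 189 reads. The 2 EV libraries were the highest of all 8, and their counting intervals overlapped neither each other nor those of any other library. At 1 h AREG had 0.666, 0.981, 0.438 and 0.684 CPM in the same order (38, 57, 20 and 48 reads), and each of these overlapped its neighbour in rank. Of 6 tested members 2 were called, against 1.7% of all genes (290 of 17044). ERRFI1 missed the threshold (0.40 ± 0.10, adjusted p = 0.094), with 131, 154, 177 and 263 CPM in the 4 libraries of 6 h. It was called by DESeq2 (adjusted p = 0.017) and in the edgeR fits without the 6 h control or the 6 h EV library (0.57 in both, adjusted p = 0.0078 and 0.0076), which leave the pair with atRAL. Leaving out any of the 4 libraries taken at 1 h ended the calls of HBEGF and AREG, with adjusted p from 0.057 to 0.079 for HBEGF and from 0.13 to 0.16 for AREG, and on log2(FPKM + 1) (adjusted p = 0.091 and 0.059). AREG was also lost with no filter (adjusted p = 0.059), in the 4 libraries of 6 h alone (adjusted p = 0.082) and without the 6 h atRAL plus EV library (adjusted p = 0.061).

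Whether the EV effect differed between the times was tested on the difference itself. Of 6 members 0 were called, where 0.211% of all genes were, and 2068 genes had an unadjusted p under 0.05. For HBEGF the difference, 6 h minus 1 h, was -0.32 (95% interval -0.68 to 0.05, adjusted p = 0.47, edgeR), for AREG 1.05 (0.25 to 1.84, adjusted p = 0.31) and for ERRFI1 -0.44 (-0.78 to -0.10, adjusted p = 0.31). The intervals of AREG and ERRFI1 leave out 0 before the adjustment over all genes and point in opposite directions. DESeq2 called 0 of 6 as well. EGFR was called in the fits without the 6 h control or the 6 h EV library (0.46 in both, adjusted p = 0.038 and 0.037). Pooled over both times, the EV effect with atRAL minus that without atRAL was -0.05 for HBEGF (-0.56 to 0.46), 0.14 for AREG (-1.18 to 1.46) and 0.04 for ERRFI1 (-0.56 to 0.63). Here 0 of 6 members and 0% of all genes were called by edgeR or DESeq2, and 194 genes had an unadjusted p under 0.05. The 0% rests on all 8 libraries, since edgeR called 112 genes without the 1 h atRAL library, 81 without the 1 h atRAL plus EV library and 9 without the 6 h atRAL or the 6 h atRAL plus EV library, with 0 members among them. The sign of these 3 values turned in some fits without a library. In single pairs at 1 h, EV gave HBEGF a log2 ratio of 1.62 without atRAL and 1.26 with it. At 6 h these ratios were 0.98 and 1.26. For ERRFI1 they were 0.97 and 0.71 at 1 h, and 0.24 and 0.57 at 6 h. AREG gave 0.54 and 0.61, then 1.55 and 1.65. The differences of HBEGF and ERRFI1 thus had opposite signs at 1 h and 6 h. The pooled test cannot show a difference within 1 time, and a single pair has no replicate check.

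**Figure D2:**
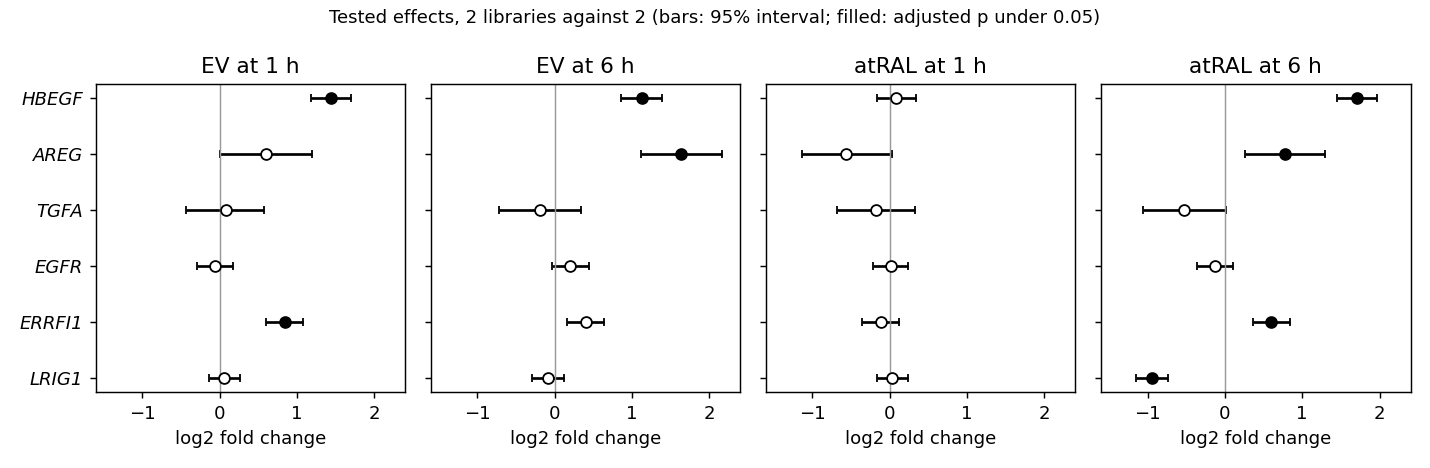
Log2 fold change (horizontal axes) of the 6 tested members (vertical axis) for EV and atRAL at each time, with 2 libraries against 2. Bars are 95% intervals and filled points have an adjusted p under 0.05; HBEGF is filled in 3 of the 4 panels and LRIG1 only for atRAL at 6 h, to the left of 0.

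The next question is what atRAL did. At 1 h 0 of 6 members were called by edgeR or DESeq2, and 0.00587% of all genes were, a single gene by edgeR, with 323 genes at an unadjusted p under 0.05. The values of HBEGF (0.08 ± 0.11), ERRFI1 (-0.12 ± 0.10), EGFR (0.01 ± 0.10) and LRIG1 (0.03 ± 0.09) were at most about as large as their errors, and that of AREG was -0.56 ± 0.25.

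At 6 h the picture was another. HBEGF rose 3.27-fold (1.71 ± 0.11, adjusted p = 9.8e-05, edgeR), by 2.96-fold in the pair without EV and by 3.58-fold in the pair with EV. ERRFI1 rose 1.52-fold (0.60 ± 0.10, adjusted p = 0.0045) and AREG 1.72-fold (0.78 ± 0.23, adjusted p = 0.034). LRIG1 dropped by 0.94 ± 0.09 in log2 units (adjusted p = 0.00035). Among the members, the ligand genes HBEGF and AREG and the kinase inhibitor gene ERRFI1 thus went up. LRIG1, whose product acts on receptor breakdown, went down. All 4 moved the same way in 2 of 2 pairs, again the pairs that the test itself used. TGFA (-0.53 ± 0.23, adjusted p = 0.12) and EGFR (-0.13 ± 0.10, adjusted p = 0.38) were not called. The count of 4 of 6 members has to be read against 30.2% of all genes called in this comparison (5140 of 17044), 15.9% higher and 14.2% lower. The calls of HBEGF, ERRFI1 and LRIG1 held in all 18 alternatives. The call of AREG was lost without any 1 of the 8 libraries (adjusted p from 0.082 to 0.18), with no filter (adjusted p = 0.051), in the 4 libraries of 6 h alone (adjusted p = 0.064) and with DESeq2 (adjusted p = 0.23).

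LRIG1 was nearly level over the libraries of 1 h and the 6 h control. It stood at 89 CPM in the control, 95.7 with EV, 93.4 with atRAL and 94.8 with atRAL plus EV at 1 h, and at 87.1, 74.5, 41.1 and 43 CPM at 6 h. The 2 atRAL libraries of 6 h overlapped each other in their counting intervals and lay far below the other 6. EV made no detectable difference between them (43 against 41.1 CPM, 2661 and 2541 reads). The last bases of LRIG1 overlap SLC25A26, whose test for atRAL at 6 h gave 0.34 ± 0.13 (adjusted p = 0.083, edgeR). The strand setting of the counting is not given in the sources used here. That limit also holds for TGFA, which overlaps TGFA-IT1, LOC107985895 and LOC124907824, and for EGFR, which overlaps EGFR-AS1.

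The atRAL effect at 6 h minus that at 1 h was called for 4 of 6 members, against 13.4% of all genes (2286 of 17044). It was 1.63 ± 0.16 for HBEGF (adjusted p = 0.0013, edgeR), 1.34 ± 0.34 for AREG (adjusted p = 0.04), 0.72 ± 0.15 for ERRFI1 (adjusted p = 0.02) and -0.97 ± 0.12 for LRIG1 (adjusted p = 0.0036). For these 4 genes the response to atRAL thus differed between 1 h and 6 h by a test of that difference. Without the 1 h EV library all 4 calls were lost (adjusted p from 0.056 for HBEGF to 0.27 for AREG), and without any other library of 1 h only HBEGF was called. LRIG1 then had adjusted p from 0.079 to 0.098 and ERRFI1 from 0.12 to 0.25 over the 4 such fits. The AREG call was lost in 10 of 17 alternatives (adjusted p up to 0.27), among them the fits without the 6 h control, EV, or atRAL plus EV library (adjusted p from 0.05 to 0.083). ERRFI1 was also lost with no filter (adjusted p = 0.05).

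The change from 1 h to 6 h was tested apart without and with atRAL, and not between genes. Without atRAL, HBEGF dropped by 1.48 ± 0.15 in log2 units from 1 h to 6 h (adjusted p = 0.027, edgeR), from 29 to 13.1 CPM in the control and from 89.5 to 25.8 CPM with EV. It was the only member called of 6, where 0.158% of all genes were called (27 of 17044). The call was lost without any 1 of the 1 h control, 1 h EV, 6 h control and 6 h EV libraries (adjusted p from 0.11 to 0.75), with no filter (adjusted p = 0.11) and on both log2(FPKM) scales (adjusted p = 0.22 and 0.11). ERRFI1 gave -0.97 ± 0.17 (adjusted p = 0.12) and was called by DESeq2 (adjusted p = 1.1e-05).

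With atRAL, HBEGF stood at 35 and 38.7 CPM without EV and at 83.8 and 92.6 CPM with EV at the 2 times, a change of 0.14 (95% interval -0.21 to 0.50, adjusted p = 0.54). Here 3 of 6 members were called, against 20.2% of all genes (3450 of 17044). AREG was higher at 6 h (1.71 ± 0.40, adjusted p = 0.028), TGFA lower (-1.06 ± 0.27, adjusted p = 0.036) and LRIG1 lower (-1.16 ± 0.11, adjusted p = 0.0016). The LRIG1 call held in all 17 alternatives. AREG was lost in 6 of 17, among them the fits without the 1 h atRAL plus EV (adjusted p = 0.19), 6 h atRAL plus EV (adjusted p = 0.21), 6 h control (adjusted p = 0.052) or 6 h EV library (adjusted p = 0.056). TGFA was lost in 13 of 17 (adjusted p up to 0.13), including the fits without any 1 of the 8 libraries (adjusted p from 0.077 to 0.13).

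TGFA, the gene of transforming growth factor alpha, was a weakly expressed ligand gene. Its levels were 1.79, 1.91, 1.6 and 1.67 CPM at 1 h and 1.26, 1.01, 0.792 and 0.775 CPM at 6 h (control, EV, atRAL, and atRAL plus EV), from 48 to 117 reads. Every library of 6 h was below every library of 1 h, yet the counting intervals of neighbours in rank overlapped throughout. EREG, the gene of epiregulin, had 0 reads in each library. The 95% counting interval of 0 reads reached 0.0501 CPM in the 6 h control, the lowest such limit, and 0.0808 CPM in the 1 h atRAL library, the highest. Any EREG RNA was thus below what this depth can show.

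EGFR, the receptor gene, was not called in any comparison over all 8 libraries. It had 303, 295, 309 and 294 CPM at 1 h and 266, 267, 212 and 281 CPM at 6 h in the same order. The atRAL library of 6 h was the lowest, at 79.8% of its control, and the library with atRAL plus EV was 1.32-fold above it (17376 against 13122 reads). The counting intervals of these 2 libraries did not overlap, but each is 1 library, and a single pair has no replicate check. Taken over both pairs, EV at 6 h gave 0.20 ± 0.10 (adjusted p = 0.32) and atRAL at 6 h -0.13 ± 0.10 (adjusted p = 0.38). Both were called when the fit was left with the unequal pair alone. EV gave 0.41 without the 6 h control or the 6 h EV library (adjusted p = 0.019 in both), and atRAL gave -0.33 without the 6 h EV library (adjusted p = 0.021) or the 6 h atRAL plus EV library (adjusted p = 0.02). The atRAL value turned to 0.07 without the 6 h control or the 6 h atRAL library. The change from 1 h to 6 h with atRAL was -0.30 ± 0.12 (adjusted p = 0.13). It was called at -0.55 without the 1 h atRAL plus EV library (adjusted p = 0.012) or the 6 h atRAL plus EV library (adjusted p = 0.011), and stood at -0.07 without the 1 h or the 6 h atRAL library.

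Levels of different genes were compared per length, as FPKM, values that the authors deposited after dividing by transcript length and depth. The ligands HBEGF, AREG, EREG, TGFA, EGF, BTC and EPGN together had 12.4, 35.9, 14.3 and 33 FPKM at 1 h and 7.05, 12.3, 16.6 and 37.2 FPKM at 6 h. HBEGF made up 72% of that sum in the 6 h control and 93.8% with EV at 1 h, the lowest and the highest of the 8 libraries. AREG held 10.1% with EV at 6 h, its highest share, and 1.45% to 5.96% elsewhere. HBEGF had 0.401 FPKM per FPKM of EGFR in the 1 h control and 1.27 with EV, and 0.205 in the 6 h control and 1.38 with atRAL plus EV. In 3 libraries, those with EV at 1 h and the one with both treatments at 6 h, the ligand gene thus stood above the receptor gene on the FPKM scale.

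**Figure D3:**
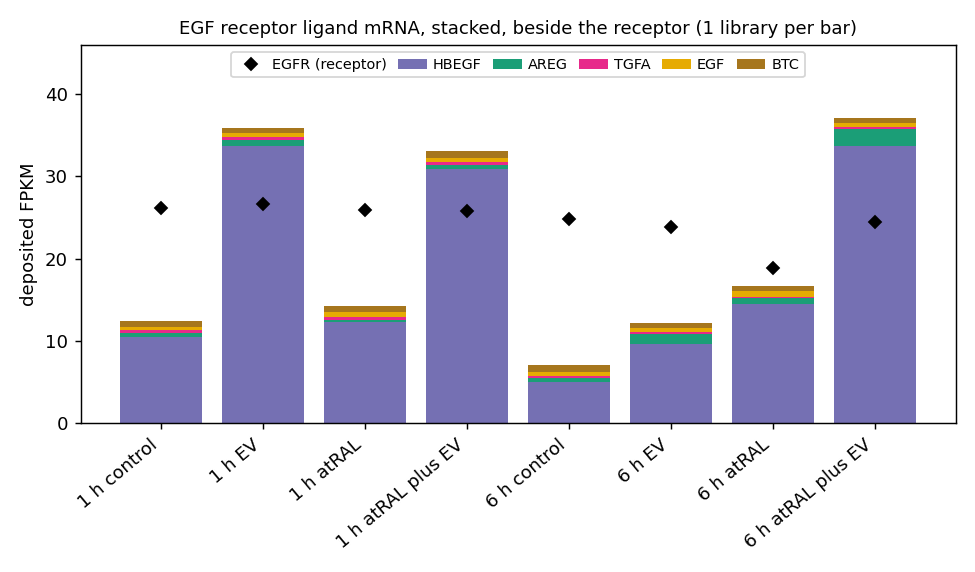
Deposited FPKM (vertical axis) of the EGF receptor ligand genes stacked in 1 bar per library (horizontal axis), with EGFR as diamonds. HBEGF makes up 72% to 93.8% of each bar, and the bar rises above the diamond in the EV and atRAL plus EV libraries of 1 h and in the atRAL plus EV library of 6 h.

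The remaining genes of the pathway were grouped in 6 lists. With EV at 1 h, calls fell in 1 of them, the MAPK activity genes, which are targets and feedback regulators of the ERK cascade. Of its 10 genes 4 rose and 0 fell, where 0.205% of all genes were called (35 of 17044). The list median was 0.51 against -0.001 for all genes. SPRY4, a Sprouty inhibitor of receptor signalling, rose by 1.74 ± 0.15 (adjusted p = 0.0086, edgeR) and DUSP6, an ERK phosphatase, by 1.65 ± 0.10 (adjusted p = 0.0011). SPRY2, another Sprouty gene, rose by 1.33 ± 0.13 (adjusted p = 0.016) and PHLDA1 by 0.89 ± 0.08 (adjusted p = 0.0061). DUSP6 stood at 27 CPM in the control, 93.3 with EV, 23.1 with atRAL and 65.1 with atRAL plus EV. These 4 calls, like those of HBEGF and ERRFI1, did not hold when any single 1 h library was left out (adjusted p up to 0.84). SPRY2 and SPRY4 were also lost on log2(FPKM + 1), and SPRY2 on log2(FPKM + 0.1) and with no filter. The tested genes of the other 5 lists had 0 calls.

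With EV at 6 h, where 1.7% of all genes were called, the MAPK activity genes had 2 of 10 higher and 0 lower, DUSP6 (0.86 ± 0.10, adjusted p = 0.011) and the cyclin gene CCND1 (0.52 ± 0.08, adjusted p = 0.033). CD9, a tetraspanin known to associate with the HB-EGF precursor and used as a marker of vesicles, rose by 0.53 ± 0.08 (adjusted p = 0.031), the only call among 11 sheddases and partners. It had 67.4, 99.9, 77.5 and 109 CPM in the 4 libraries of 6 h. GAB1, a docking protein below the receptor, fell by 0.57 ± 0.11 (adjusted p = 0.049), the only call among 18 adaptors and core kinases. Ligands, other receptors and receptor turnover had 0 calls. All 4 calls ended when any single 1 h library was left out, with no filter and on both log2(FPKM) scales (adjusted p up to 0.22). GAB1 and CCND1 were also lost without the 6 h atRAL or the 6 h atRAL plus EV library.

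With atRAL at 6 h the calls were spread over all 6 lists, in a comparison that called 30.2% of all genes. Among 11 sheddases and partners 3 rose and 0 fell. ADAM17, the main protease that releases EGF receptor ligands, rose by 1.05 ± 0.10 (adjusted p = 0.00047), with 56.9 CPM in the 6 h control, 58.1 with EV, 136 with atRAL and 104 with atRAL plus EV. RHBDF2, the gene of an iRhom that carries ADAM17 to the surface, rose by 0.62 ± 0.08 (adjusted p = 0.0012) and TSPAN14, a tetraspanin partner of ADAM10, by 0.49 ± 0.10 (adjusted p = 0.0084).

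Of 19 tested genes of receptor ubiquitination, phosphatases and trafficking, 14 rose and 1 fell, where 15.9% of all genes rose and 14.2% fell. The list median was 0.41 against -0.008 for all genes. The ubiquitin ligase genes RNF41 (1.10 ± 0.08, adjusted p = 0.00012) and CBLB (0.89 ± 0.10, adjusted p = 0.00064) rose, as did SH3KBP1, an adaptor that binds CBL (0.71 ± 0.10, adjusted p = 0.0017). SOCS5, whose product promotes receptor breakdown, was the 1 gene of the list called lower, by 0.85 ± 0.10 (adjusted p = 0.00079). Of 18 adaptors and core kinases 7 rose and 0 fell, against 30.2% of all genes called in either direction. Among the 7 were SOS2 (1.02 ± 0.08, adjusted p = 0.00016), BRAF (0.76 ± 0.10, adjusted p = 0.0016) and MAP2K1, a MEK gene (0.38 ± 0.07, adjusted p = 0.0064).

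The MAPK activity genes split, with 4 of 10 higher and 2 lower, against 15.9% of all genes higher and 14.2% lower. ETV5, a transcription factor gene of the ERK response, rose by 1.41 ± 0.08 (adjusted p = 5.1e-05), DUSP6 by 1.24 ± 0.10 (adjusted p = 0.00016), SPRY4 by 0.93 ± 0.15 (adjusted p = 0.0042) and PHLDA1 by 0.69 ± 0.08 (adjusted p = 8e-04). SPRY2 (-0.51 ± 0.13, adjusted p = 0.026) and the phosphatase gene DUSP4 (-0.65 ± 0.12, adjusted p = 0.0065) fell. Among the 3 other receptors ERBB2 fell by 0.54 ± 0.07 (adjusted p = 0.0017) and ERBB4 by 0.66 ± 0.20 (adjusted p = 0.039), and among 4 tested ligands outside the members NRG2, a neuregulin, fell by 0.98 ± 0.24 (adjusted p = 0.019). The calls of ERBB4 and NRG2, both weakly expressed, were lost with DESeq2, in the 4 libraries of 6 h alone and in fits without a library (any of the 8 for NRG2; any of 1 h, the 6 h control or the 6 h atRAL library for ERBB4), with adjusted p up to 0.21 and 0.11. In bulk RNA, a gene at a lower level in fewer cells and one at a lower level per cell cannot be told apart.

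**Figure D4:**
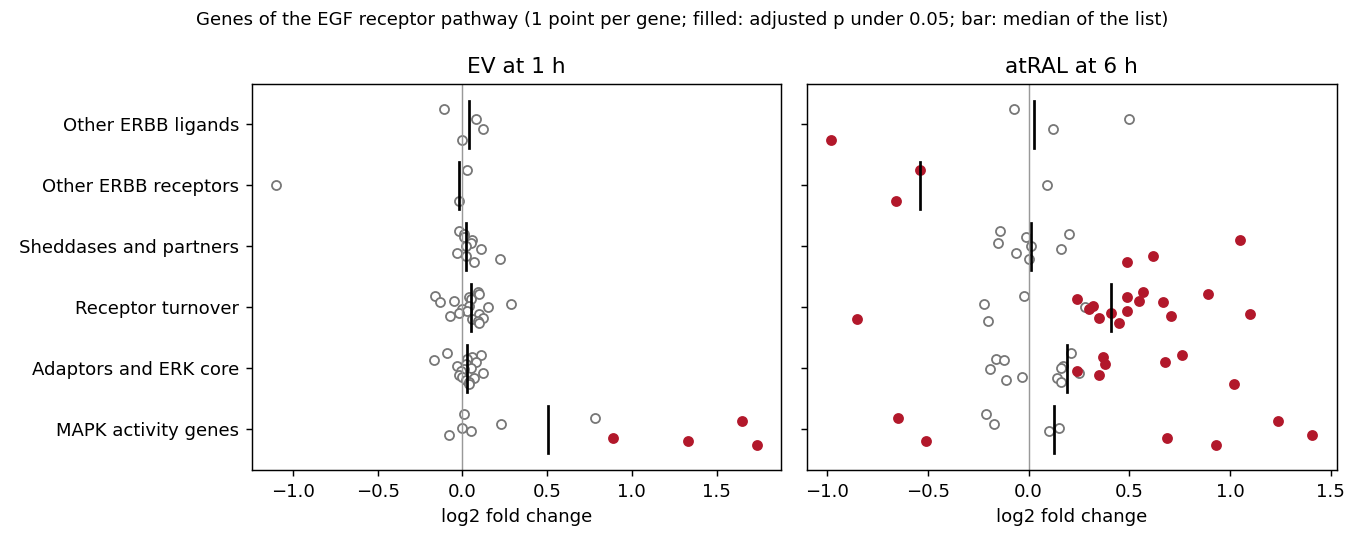
Log2 fold change (horizontal axes) of the tested genes of 6 pathway lists (vertical axis) for EV at 1 h and atRAL at 6 h. A point is 1 gene, filled where its adjusted p is under 0.05, and a bar is the median of the list; filled points lie only in the MAPK activity list for EV at 1 h and in all 6 lists for atRAL at 6 h.

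Genes with a pattern like that of HBEGF were ranked by Pearson's r of log2 CPM over the 8 libraries, among 819 genes with an average log2 CPM of at least 1 and a standard deviation of at least 0.5. These correlations describe the same 8 libraries and conditions and carry no p. The 5 nearest were DUSP5, a phosphatase gene that ERK induces (r = 0.986), MAFF, a small MAF transcription factor gene (0.945), LIF, a cytokine gene (0.936), SPRY4 (0.929) and ERRFI1 (0.927). DUSP5 had 38.2, 118, 48.8 and 125 CPM at 1 h and 18.6, 36.7, 52.4 and 93.1 CPM at 6 h. Like HBEGF it was lowest in the 6 h control and high with EV at 1 h and with both treatments at 6 h. Having been chosen on these same libraries, the neighbours of HBEGF are given as a description, with no test of their likeness. The tests of SPRY4 and ERRFI1 given above belong to them as a list gene and a member.

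**Figure D5:**
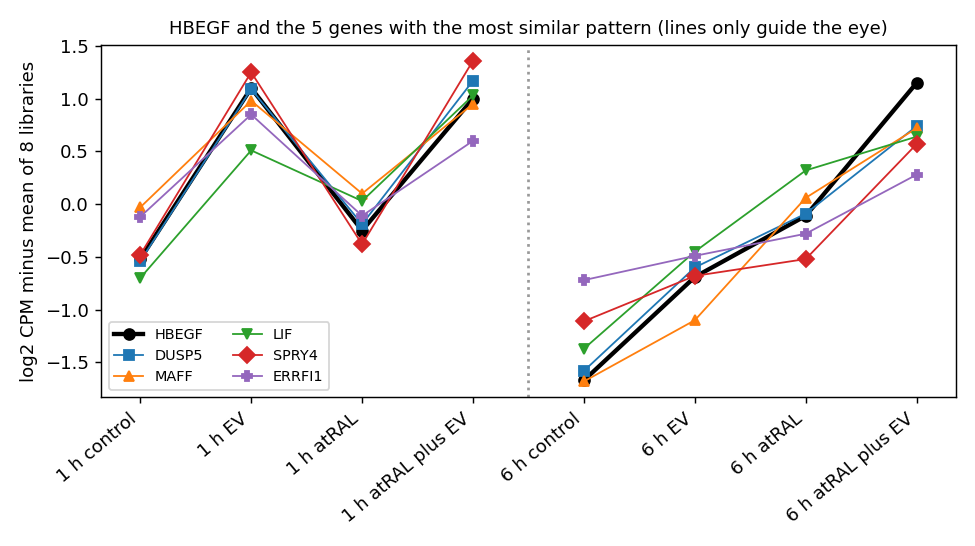
Log2 CPM minus the mean of the 8 libraries (vertical axis) of HBEGF and the 5 genes nearest to it by Pearson's r, in the 8 libraries (horizontal axis). A marker is 1 library and lines only guide the eye; all 6 genes are lowest in the 6 h control, with HBEGF at -1.67 and ERRFI1 at -0.72.

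The other members had other neighbours over the same 8 libraries. For ERRFI1 they were SPRY4 (r = 0.975), KBTBD8 (0.955) and DUSP5 (0.947). For AREG they were MFSD2A, a lipid transporter gene (0.938), ESM1, which encodes endocan (0.934), and GFPT2, an enzyme gene of hexosamine synthesis (0.920), all highest in the atRAL plus EV library of 6 h. For LRIG1 they were PRR16, ERCC6 and LRRC20 (0.993 to 0.994), each lowest in an atRAL library of 6 h. For TGFA they were CAMK1G, SOCS3 and TMTC4 (0.986 to 0.990), each highest with EV at 1 h. EGFR itself had a standard deviation of 0.17 over the libraries, under the limit set for its neighbours, so the likeness of VGLL3 (0.976), ZNF587B (0.959) and RIN2 (0.946) concerns the order of small differences. Among the members, r was 0.93 between HBEGF and ERRFI1, 0.92 between TGFA and LRIG1, and -0.67 between AREG and TGFA.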

How the data were processed

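Poly(A) RNA libraries were made with a stranded TruSeq kit from TRIzol extracts, per the labels' protocols. Named per the submitters' processing notes, with no statement of what each did, are HISAT2 2.1.0, StringTie 2.1.3b and GRCh38. Which program counted the reads, with which filters and strand setting, is not given in the sources used here. The authors deposited 1 table of 46427 genes with read counts, not normalised, and FPKM, which they scaled to length and library size, per the file headers. A further 8 columns (TPM) were not used.

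Counts were filtered by edgeR's filterByExpr (minimum count 10, grouped by the 4 combinations of time and atRAL), which kept 17044 genes, scaled by TMM and tested by the robust quasi-likelihood F test (R 4.3.3, edgeR 4.0.16). Two-sided p-values were adjusted by the Benjamini-Hochberg method over the 17044 genes, and calls needed an adjusted p under 0.05. SE stands for the fold change's standard error in log2 units. With 1 library per condition, model A (time, atRAL within time, EV within time) counts any interaction between atRAL and EV at a time as spread. Model B (4 combinations of time and atRAL, EV within atRAL status) gave the changes with time and the EV difference by atRAL, and counts a different EV effect at the 2 times as spread. Each has 2 residual degrees of freedom. The labels name no separate cultures, so the p-values reflect only how these libraries vary, which may be technical.

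Single pairs are ratios of CPM with a prior count of 2. Alternatives were other scalings, filters, DESeq2 1.42.0, limma 3.58.1 (voom, and log2(FPKM + 1) or log2(FPKM + 0.1)), 1 time alone, and leaving out each library. Named are all members, up to 4 called genes with the largest change per list and comparison, and the genes nearest in pattern (5 for HBEGF, 3 for the others). Some results under this rule are not reported here. Members and lists were chosen with earlier results of these data known. The scripts' tests were checked on simulated data.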

Additional observations from a re-analysis of the deposited data

Results flagged for a closer look

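For 4 members the effect of atRAL differed between the times by a test of the difference itself (atRAL at 6 h minus atRAL at 1 h, edgeR, adjusted over all 17044 genes). HBEGF gave 1.63 (adjusted p = 0.0013), with effects of 0.08 at 1 h and 1.71 at 6 h. AREG gave 1.34 (adjusted p = 0.04), from -0.56 to 0.78, on 20 to 189 reads per library. ERRFI1 gave 0.72 (adjusted p = 0.02), from -0.12 to 0.60. LRIG1 gave -0.97 (adjusted p = 0.0036), from 0.03 to -0.94. The same difference was called for 13.4% of all genes. None of the 4 calls held in every fit without a library of 1 h, as given above. The AREG call was also lost with DESeq2 (adjusted p = 0.2), limma-voom (adjusted p = 0.056) and edgeR with no filter (adjusted p = 0.066). With 1 library per condition, no group could be searched for an outlying sample.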

How the results depend on the processing

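Over 54 results of the 6 tested members, 942 alternative values were computed: 810 kept direction and side of the threshold, 80 lost a call, 12 gained one and 40 changed sign, all in results not called. With no filter the members called were 1 for EV at 1 h, 1 for EV at 6 h, 2 for the atRAL difference between times, 0 for 6 h against 1 h without atRAL and 1 with atRAL. On log2(FPKM + 1) they were 1 for EV at 1 h, 0 for EV at 6 h, and 0 and 1 for the changes with time without and with atRAL; on log2(FPKM + 0.1) the count without atRAL was 0. DESeq2 gave 2 for that change, and the 4 libraries of 6 h alone gave 1 for EV at 6 h. Leaving out each library in turn gave 0 to 2 members for EV at 1 h, 0 to 4 for EV at 6 h, 0 to 4 for the atRAL difference, 0 to 1 for the EV difference between times, and 0 to 1 and 1 to 2 for time without and with atRAL. The causes were not tested. Every such fit has 1 residual degree of freedom in place of 2, and fits that lost calls and fits that gained them share this number. In model A the residual spread then comes only from the 4 libraries of the other time. In model B it comes only from the 4 of the other atRAL status.

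Sign changes on both FPKM scales were EGFR -0.03 and LRIG1 -0.04 for atRAL at 1 h and EGFR 0.01 for EV at 1 h; on log2(FPKM + 1) the EV difference by atRAL was 0.02 for HBEGF. Over the fits without a library, atRAL at 1 h ran from -0.1 to 0.27 (HBEGF), -0.01 to 0.03 (EGFR), -0.25 to 0.01 (ERRFI1) and -0.02 to 0.07 (LRIG1). EGFR ran from -0.33 to 0.07 for atRAL at 6 h and from -0.34 to 0.06 for its difference between times. LRIG1 ran from -0.23 to 0.07 for EV at 6 h and from -0.29 to 0.01 for its difference, and AREG from -0.22 to 0.82 for time without atRAL. The EV effect with minus without atRAL ran from -0.36 to 0.3 (HBEGF), -0.47 to 0.68 (AREG), -0.08 to 0.37 (TGFA), -0.05 to 0.44 (EGFR), -0.33 to 0.43 (ERRFI1) and -0.06 to 0.29 (LRIG1).

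Counts over all genes moved by over 1.5 times, for most comparisons in both directions. For atRAL at 6 h and for time with atRAL they moved that far only downward. EV at 1 h called 35 genes, 107 with DESeq2, 22 on log2(FPKM + 1), 139 in the 4 libraries of 1 h alone, 0 or 1 without a library of 1 h and 178 to 193 without one of 6 h. EV at 6 h called 290, 49 with no filter, 544 with a minimum count of 50, 708 with DESeq2, 48 and 21 on the log2(FPKM + 0.1) and log2(FPKM + 1) scales, 43 in the libraries of 6 h alone and 2 to 1817 without a library. Its difference between times called 36, 211 with DESeq2 and 0 to 1091 without a library. Time without atRAL called 27, 510 with DESeq2, 0 with no filter or on FPKM, 0 without a library of its own and 739 to 965 without one of the 4 atRAL libraries. Time with atRAL called 3450 and 1680 to 3054 without a library. atRAL at 1 h called 1 gene, 24 with DESeq2 and 43 to 48 without a library of 6 h. atRAL at 6 h called 5140 and 3272 to 5297 without a library. The atRAL difference called 2286, 1342 with no filter, 1333 and 1078 on FPKM, and 65 to 3626 without a library. No paired analysis was possible because no condition has a second replicate to pair by number; the comparisons within a time and treatment status come from the layout of conditions and are part of both models.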
